A study of Arabidopsis thaliana with 12 samples.

Results

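Long loci, those whose deposited coordinates span over 6 kb, are described here in 3 comparisons of Arabidopsis thaliana seedlings, nrpe1 against Col-0, swi3b +/- against Col-0 and idn2-1 against Col-0. Members were the identifiers of gene style (AT, chromosome digit, G, 5 digits) with an end minus start over 6000 bp in any of the 3 deposited tables. ROS1 (AT2G36490), NRPE1 (AT2G40030) and MRD1 (AT1G53480) meet that limit and were left out of the set. That gave 76 members among 1465 gene identifiers. For nrpe1 14 are listed (all features of that table make up 1.88% of those tested), for swi3b +/- 16 (2.43%) and for idn2-1 59 (3.18%). Members were chosen by listing, and a table holds only features that the authors called at q below 0.05 for mutant against Col-0. All directions and sizes below are therefore descriptions without a new test.

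RNA was taken from whole seedlings 2 to 3 weeks old, raised in long days, and was depleted of ribosomal RNA. The 12 samples are 3 replicates each of nrpe1, swi3b +/-, idn2-1 and the wild type Col-0. The idn2-1 samples are numbered apart from the other genotypes, whose numbers run on, and no Col-0 samples are numbered with them. Whether idn2-1 was handled apart is not given in the labels. Any such difference could not be separated from the genotype. The nrpe1 plants are mutant in the largest subunit of RNA polymerase V (the allele is not given in the labels), swi3b +/- plants carry 1 mutant copy of a SWI/SNF subunit gene, and idn2-1 plants are mutant in a protein that binds RNA and acts in DNA methylation guided by RNA. Each genotype has 1 pooled value in RPKM (reads corrected for library size and transcript length) in a table, so no value has an error, and the depth is unknown. In bulk seedlings, fewer cells of a type and less RNA per cell cannot be told apart. Among the mutated genes, NRPE1 is listed at 1.01 RPKM in nrpe1 and 3.98 in Col-0, whereas SWI3B and IDN2 are listed in none of the 3 tables. None of 14 flower, root and seed marker genes is listed in any table. Only genes called different from Col-0 are listed, and unlisted genes have no values, so the tissue could not be checked.

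As background, RNA polymerase V makes non-coding scaffold transcripts in plants. Proteins such as IDN2 bind them, and DNA methylation and nucleosome positioning by SWI/SNF complexes then silence the locus. Arabidopsis genes are compact, and a long deposited locus can arise in different ways: a gene can itself be long, with many introns, or a gene can share its locus with a neighbour whose transcribed region touches its own.

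Both kinds were present. By the RefSeq annotation, 45 of the 76 members have an own gene span over 6000 bp, and 31 are shorter genes inside a longer deposited locus. The 42 protein-coding members of the first kind have a median of 19 exons and 4410 transcribed bases in the longest transcript. The 27 protein-coding members of the second kind have medians of 6 exons and 2252 bases. Only 7 of the 76 members have a transcript over 6000 bases. The others pass the limit only because the span also counts introns or neighbouring sequence. The deposited loci run from 6006 to 22846 bp, and the 76 members lie in 72 distinct loci.

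Shorter members mostly shared their locus with a gene pointing towards them. Of the 26 shorter protein-coding members with a protein-coding neighbour in the locus, 24 lie tail to tail with the nearest one, 1 lies head to head and 1 on the same strand. In 22 of the 24 tail-to-tail cases the annotated genes overlap. The sources used here do not say whether the libraries kept strand, so reads inside an overlap cannot be assigned to 1 gene. The overlap is 19 bases for AT5G58120 and ROS3, 58 for GTR1 and HA4, and 1174 for AT1G77960 and AGL67. CSLE1, a cellulose synthase-like gene of 3043 bp, shows the extent: its locus of 18695 bp also holds UPL1, a ubiquitin ligase gene of 13369 bp that is listed in no table.

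Long loci were mostly lower in idn2-1 and more often higher than lower in swi3b +/-, while in nrpe1 the directions were close to even. In idn2-1, 9 members were higher and 50 lower than in Col-0, that is 15.3% higher, against 42.4% of all 754 genes listed in that table. In swi3b +/-, 11 were higher and 5 lower (68.8% higher, against 78.3% of all 617 listed genes), and in nrpe1 8 were higher and 6 lower (57.1%, against 57.3% of all 471). The authors called 1.24% of the features tested higher and 1.95% lower in idn2-1, 1.87% and 0.556% in swi3b +/-, and 1.04% and 0.848% in nrpe1. Since the rule used these calls, nothing is read from the members' counts against those shares. The median log2 ratio of mutant to Col-0 RPKM was -1.04 over the 59 members in idn2-1, 0.85 over the 16 in swi3b +/- and 0.64 over the 13 in nrpe1 with both values above 0. Over all listed genes it was -0.98, 1.01 and 0.67 in the same order of mutants. In nrpe1 6 protein-coding members were higher and 6 lower (median 0.04), and with the left-out identifiers 8 were higher and 8 lower. In nrpe1 and swi3b +/- the sign of the median rests on the 6000 bp limit: among members over 8000 bp it was -0.56 in nrpe1 (5 members) and -0.81 in swi3b +/- (6 members).

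**Figure D1:**
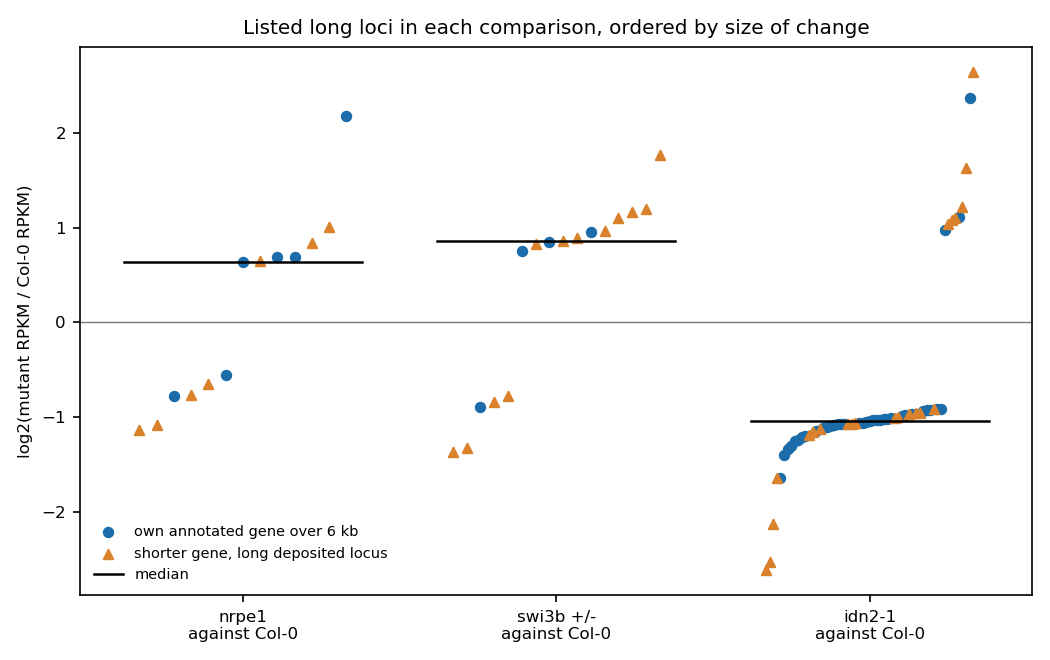
Each point is 1 long locus with both values above 0, placed at the log2 ratio of mutant to Col-0 RPKM, for nrpe1, swi3b +/- and idn2-1. Circles are genes whose own annotated span is over 6 kb, triangles are shorter genes in a long deposited locus, and black lines are medians (0.64, 0.85 and -1.04). The idn2-1 points form a dense band just below -0.9, with 9 points above 0.

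The sizes also differed in form. The 50 members lower in idn2-1 fell 1.89-fold to 6.13-fold with a median of 2.10-fold, and 43 of them fell by less than 2.5-fold. That band lies just above the smallest change listed for any gene with both values above 0 in the idn2-1 table, 1.86-fold. In nrpe1 the smallest listed change was 1.47-fold and in swi3b +/- 1.55-fold. Listing is by q, so these folds are the smallest seen and not thresholds. At the limit of the rule, GDAP1, with a locus of 6006 bp, had 2.71 RPKM in idn2-1 and 5.69 in Col-0. TTA2, just outside with 5996 bp, had 11.3 RPKM in idn2-1 and 22.9 in Col-0. The falls were 2.10-fold for GDAP1 and 2.02-fold for TTA2.

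Direction followed locus span as a gradient in idn2-1, and less steeply up to 6 kb in swi3b +/-. Among listed genes, 117 of 152 were higher in idn2-1 for loci up to 1 kb (77.0%), 101 of 189 for 1 to 2 kb (53.4%) and 55 of 163 for 2 to 3 kb (33.7%). The shares were 20 of 91 for 3 to 4 kb (22.0%) and 18 of 98 for 4 to 6 kb (18.4%), next to 9 of 59 for the long loci (15.3%). The long loci thus continue a decline that spans all listed genes of that table. In swi3b +/- the share fell as well, through 87.5%, 83.9%, 75.9%, 71.4% and 63.2% over the same classes up to 6 kb. It was 68.8% for the long loci in swi3b +/-. In nrpe1 the share was 50.6% up to 1 kb, 67.4% for 4 to 6 kb and 57.1% for the long loci. Of the 880 protein-coding genes that RefSeq annotates with a span over 6000 bp, 2 were higher and 39 lower in idn2-1, 5 and 2 in swi3b +/-, and 4 and 4 in nrpe1. Unlike for the members, ROS1 and NRPE1 were not taken out of this count. Both were lower in nrpe1, and ROS1 was also lower in idn2-1. For idn2-1 these are 0.227% higher and 4.43% lower, beside 1.24% and 1.95% of all features tested. For swi3b +/- they are 0.568% and 0.227%, beside 1.87% and 0.556%. For nrpe1 they are 0.455% and 0.455%, beside 1.04% and 0.848%. None of 35 genes for very large or well known long proteins, such as BIG, TOR and BRM, is listed in any table. With 1.88% to 3.18% of all features called, nothing is read from that.

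**Figure D2:**
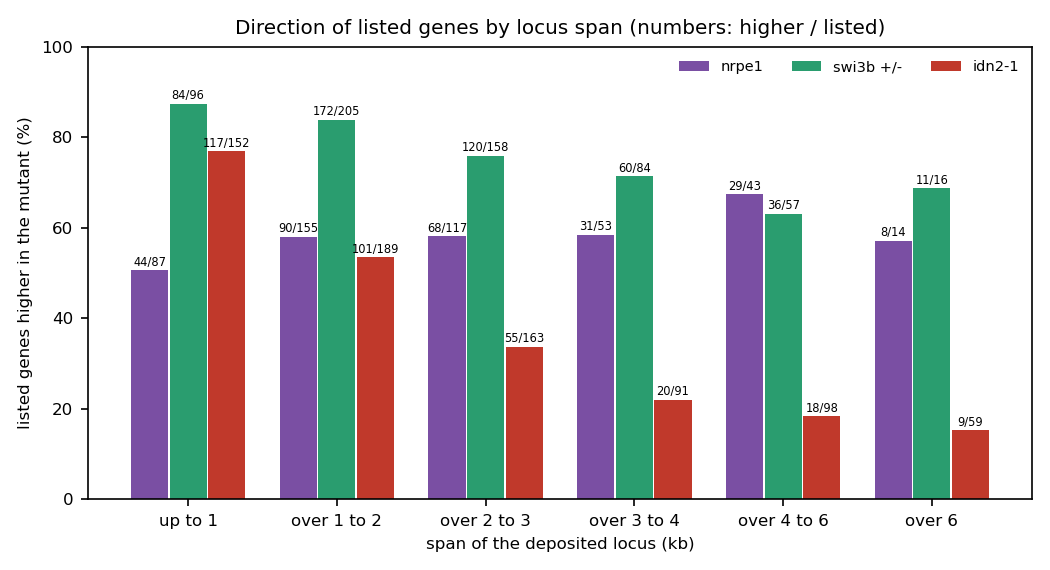
Bars show the percentage of listed genes that were higher in the mutant than in Col-0, by span of the deposited locus in kb, for nrpe1, swi3b +/- and idn2-1. Numbers above the bars are genes higher and genes listed. The idn2-1 bars fall step by step to 9 of 59 in the class over 6 kb.

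Exon number moved with direction as well, in classes chosen after the data were seen. In idn2-1, 38 protein-coding members have over 9 exons in their longest transcript, and 37 of these were lower. Of the 15 with up to 9 exons, 7 were higher and 8 lower. Of the listed protein-coding genes that are no members, 64 of 72 with over 9 exons and 288 of 553 with up to 9 exons were lower in idn2-1. In swi3b +/- members over 9 exons were higher in 3 cases and lower in 4, and in nrpe1 they were higher in 3 and lower in 3. Of all listed protein-coding genes over 9 exons, 26 of 52 were lower in swi3b +/-, against 100 of 548 with up to 9 exons.

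The Col-0 values of the idn2-1 table moved with exon number too. For 198 protein-coding genes listed in idn2-1 and in another table, the Col-0 value of the idn2-1 table was divided by that of the other table. The median was 0.854 for the 51 genes with 1 exon, 0.877 for the 127 with 2 to 9 exons and 1.06 for the 20 with over 9 exons. All 4 long loci with over 9 exons in that comparison had a ratio above 1, from 1.04 for BCAT-2 to 1.15 for ETFQO. Relative to genes with 1 exon, genes with over 9 exons thus had higher Col-0 values for idn2-1 than for the other mutants. How far this contributes to the lower idn2-1 values of long loci was not tested. The members lower in idn2-1 that are listed in no other table have no second Col-0 value.

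**Figure D3:**
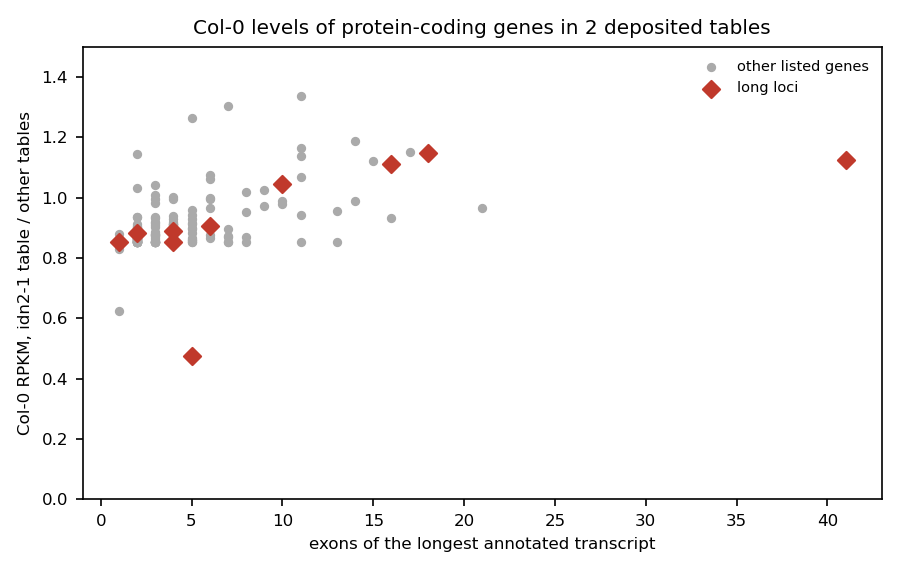
Each point is 1 protein-coding gene listed in idn2-1 and in at least 1 other table. The horizontal axis gives exons of its longest annotated transcript and the vertical axis its Col-0 RPKM in the idn2-1 table over that in the other tables. Genes with 1 exon lie mostly near 0.854, genes with over 9 exons have a median of 1.06, and the long locus at 0.476 is TBL8.

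Members listed more than once allow the mutants to be set side by side. Of the 76 members, 2 are in all 3 tables, 9 are in 2 and the other 65 are in a single one. All 3 comparisons use Col-0 samples, so these values are not independent of each other. GTR1 (AT3G47960), a transporter that loads glucosinolates, and AT5G13200, a GRAM domain gene, are the members of all 3 tables. GTR1 had 34.8 RPKM in nrpe1, against 22.1 in Col-0, and 49.8 in swi3b +/-, against the same 22.1 in Col-0. Set against its own Col-0 value, it had 41.8 RPKM in idn2-1, against 19.7 in Col-0. GTR1 was thus higher in each mutant, 1.57-fold, 2.25-fold and 2.12-fold in nrpe1, swi3b +/- and idn2-1 (q = 0.013, 5.49e-07 and 0.0104 in the authors' deposited tables). AT5G13200 had 11.6 RPKM in nrpe1, 12.7 in swi3b +/- and 6.50 in Col-0, and 11.7 in idn2-1, against 5.73 in Col-0 there. Its rises were 1.79-fold, 1.95-fold and 2.05-fold in the same order of mutants (q = 0.0257, 0.0092 and 0.0312 in the authors' deposited tables).

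Neither gene is long itself. GTR1 spans 2982 bp and overlaps the proton pump gene HA4 tail to tail by 58 bases, and AT5G13200 spans 1552 bp beside the pseudogene AT5G13205. The 250 bases before the annotated start are shown for both, since they rose in every mutant, and for TBL8, the 1 member that changed in opposite directions. Sequences are from the RefSeq TAIR10.1 assembly, 5′ to 3′ on the strand of the gene, and no annotated gene overlaps the windows. Capitals mark TTGAC, the core of the W-box bound by WRKY factors, on either strand.
AT5G13200 (plus strand, chr5:4206488-4206737): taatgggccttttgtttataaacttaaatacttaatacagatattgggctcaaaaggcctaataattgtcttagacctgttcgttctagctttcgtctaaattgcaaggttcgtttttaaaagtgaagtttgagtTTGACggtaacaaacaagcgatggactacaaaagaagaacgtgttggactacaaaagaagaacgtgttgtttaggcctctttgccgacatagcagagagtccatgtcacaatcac
GTR1 (minus strand, chr3:17700924-17701173): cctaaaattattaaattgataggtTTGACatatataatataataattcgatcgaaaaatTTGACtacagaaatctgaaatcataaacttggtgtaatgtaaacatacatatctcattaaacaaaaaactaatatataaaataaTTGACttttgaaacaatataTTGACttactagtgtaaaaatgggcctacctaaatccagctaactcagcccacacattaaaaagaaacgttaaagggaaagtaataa
TBL8 (minus strand, chr3:3647543-3647792): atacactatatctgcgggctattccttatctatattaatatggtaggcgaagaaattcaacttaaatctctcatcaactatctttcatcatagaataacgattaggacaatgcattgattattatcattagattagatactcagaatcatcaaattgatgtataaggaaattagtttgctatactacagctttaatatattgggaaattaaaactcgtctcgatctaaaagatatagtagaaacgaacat
The letters TTGAC or GTCAA occur 4 times in the GTR1 window, 1 time in that of AT5G13200 and 0 times in that of TBL8. At least 1 occurrence is found in 44.9% of the windows of all 27443 protein-coding genes with such a window. The share is 43.5% for the 69 protein-coding members. How many windows hold 4 was not counted, so nothing is read from the number in GTR1. The G-box CACGTG and the element CGCGTT (or AACGCG), searched on both strands without overlap with TTGAC in the windows shown, occur in none of them. They are found in 6.49% and 2.59% of all windows, and in 7.25% and 2.90% of those of the members.

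TBL8 (AT3G11570), of a family that acetylates cell wall polymers, moved in opposite directions. It had 2.96 RPKM in nrpe1, against 6.53 in Col-0 (2.20-fold lower, q = 0.00577 in the authors' deposited table). It had 19.4 RPKM in idn2-1, against 3.11 in Col-0 (6.25-fold higher, q = 3.08e-13 in the authors' deposited table). TBL8 has the lowest ratio of Col-0 values between the idn2-1 and nrpe1 tables, 0.476. With the Col-0 value of the nrpe1 table scaled by the median ratio of shared features, 5.59 RPKM, the rise in idn2-1 is 3.48-fold. The difference between the mutants was not tested.

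The pseudogene AT5G35935 was low in Col-0 and rose in nrpe1 and idn2-1. It spans 6504 bp as 1 exon and is thus long by itself. It had 1.78 RPKM in nrpe1, against 0.393 in Col-0, and for the other mutant 1.73 in idn2-1, against 0.335 in Col-0. These were rises of 4.53-fold and 5.15-fold (q = 2.90e-08 and 1.05e-07 in the authors' deposited tables), the largest with a value above 0 in Col-0 among long loci in nrpe1 and next to TBL8 in idn2-1. With 1 RPKM added to both values, the log2 ratio of AT5G35935 is 1.00 in place of 2.18 in nrpe1 and 1.03 in place of 2.36 in idn2-1. On that scale AT1G05220 (1.28), AT2G27080 (1.10) and GTR1 (1.05) exceed it in idn2-1. CSLE1 was lower in the same mutants, with 10.8 RPKM in nrpe1, against 17.0 in Col-0, and 6.76 in idn2-1, against 15.4 in Col-0.

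Of 4 members that act in amino acid breakdown, grouped after their values were seen, 3 are listed in swi3b +/- and 4 in idn2-1, all of them lower. Of all long loci, 84.7% were lower in idn2-1 and 5 of 16 were lower in swi3b +/-. BCAT-2 (branched-chain amino acid transaminase 2) starts the breakdown of branched-chain amino acids, MCCA is a subunit of the carboxylase of leucine breakdown, and ETFQO passes electrons from such reactions to the respiratory chain. BCAT-2 had 15.5 RPKM in swi3b +/-, against 38.8 in Col-0, and 9.30 in idn2-1, against 40.6 in Col-0. It fell 2.50-fold and 4.36-fold (q = 3.07e-08 and 1.67e-10 in the authors' deposited tables), the fall in idn2-1 being larger than for any other protein-coding member there. MCCA had 14.7 RPKM in swi3b +/-, against 37.9 in Col-0, and 21.0 in idn2-1, against 42.2 in Col-0, so its fall was larger in swi3b +/- (2.58-fold) than in idn2-1 (2.01-fold). ETFQO fell 1.79-fold in swi3b +/- and 1.95-fold in idn2-1. AT4G33150, the bifunctional enzyme that starts lysine breakdown, was listed in idn2-1 alone, with 3.62 RPKM, against 7.44 in Col-0. With the rescaled Col-0 value of the swi3b +/- table in place of that of the idn2-1 table, the falls in idn2-1 come to 3.59-fold for BCAT-2, 1.55-fold for MCCA and 1.46-fold for ETFQO. The last 2 folds are under the smallest listed change in idn2-1, so their size rests on the Col-0 value used.

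AT1G18270, annotated as a ketose-bisphosphate aldolase family protein, has 41 exons in a gene of 10624 bp. It had 5.43 RPKM in swi3b +/-, against 10.1 in Col-0, and 5.65 in idn2-1, against 11.4 in Col-0 (1.86-fold and 2.02-fold lower). With the rescaled Col-0 value its fall in idn2-1 is 1.54-fold. Among the members with an own span over 6000 bp, it is the only one that was lower in both of these mutants. AT2G27080, of the late embryogenesis abundant hydroxyproline-rich family, rose in both. It had 24.0 RPKM in swi3b +/-, against 7.05 in Col-0, and 14.0 in idn2-1, against 6.02 in Col-0. Its 3.40-fold rise in swi3b +/- (q = 0 as the authors' deposited table prints it) is the largest there among long loci.

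**Figure D4:**
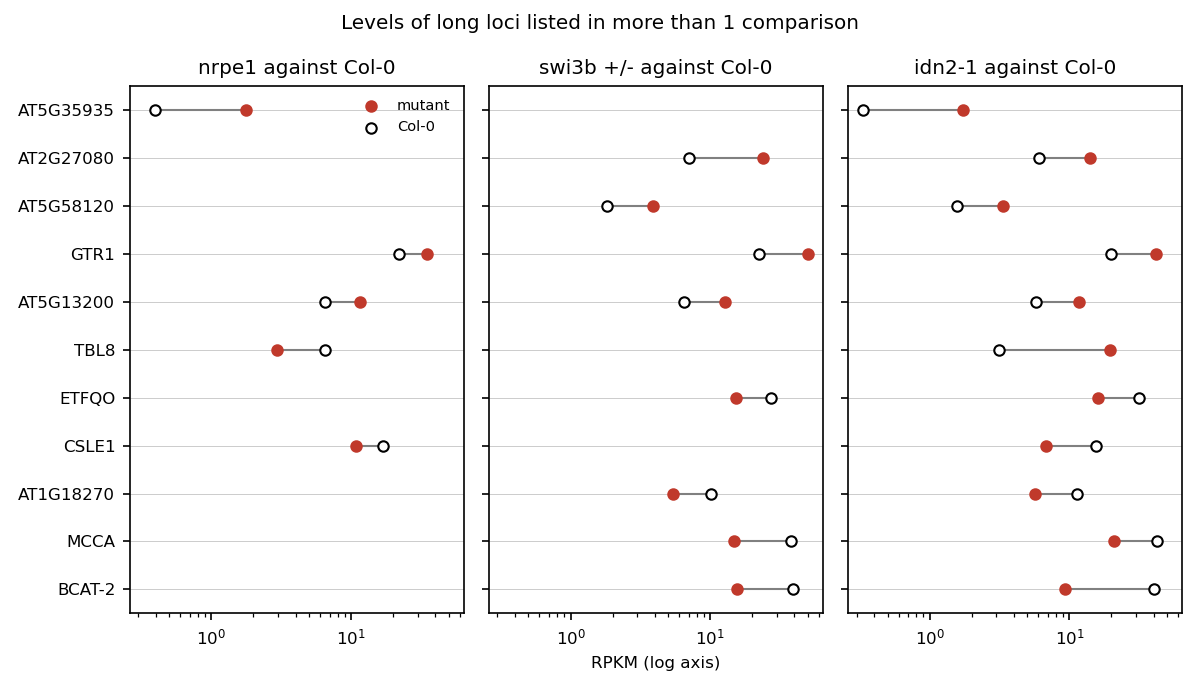
Levels in RPKM on a log axis of the 11 long loci listed in more than 1 comparison, with the mutant as a filled point and Col-0 as an open point joined by a line, in a panel each for nrpe1, swi3b +/- and idn2-1. Filled points lie right of open points for GTR1 and AT5G13200 in every panel, and on opposite sides for TBL8 in nrpe1 and idn2-1.

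The remaining members of the nrpe1 table changed by at most 2.13-fold, apart from 1 listed at 0 in Col-0. PHR1 (AT1G12370), a photolyase that repairs light-damaged DNA, had 2.51 RPKM in nrpe1, against 1.25 in Col-0 (2.01-fold higher). PPDK, an enzyme that makes phosphoenolpyruvate, the actin-binding villin gene VLN4 and SEC, which attaches sugar groups to proteins, rose 1.61-fold, 1.61-fold and 1.56-fold, and each is long by its own span. ACA8, a calcium pump of the plasma membrane with 35 exons, had 14.3 RPKM in nrpe1, against 21.0 in Col-0 (1.47-fold lower). AIR3, a subtilisin-like protease gene, AT1G78922 and AT1G77960 fell 1.71-fold, 1.71-fold and 2.13-fold. AT4G26095 is annotated as antisense to the immune receptor gene AT4G26090 and is listed at 0 in Col-0 and at 0.964 RPKM in nrpe1 (q = 0.000283 in the authors' deposited table). Where this transcript overlaps AT4G26090, the reads of both cannot be told apart.

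In swi3b +/-, the members not yet named were higher with 1 exception. P5CS1, the rate-limiting enzyme of proline synthesis, had 30.3 RPKM in swi3b +/-, against 16.7 in Col-0 (1.82-fold, q = 0.000843 in the authors' deposited table). AT1G15290, a tetratricopeptide repeat gene of 21 exons, had 37.0 RPKM in swi3b +/-, against 19.1 in Col-0 (1.94-fold). CNGC1, a cyclic nucleotide-gated channel gene, rose 1.77-fold and RXW8 1.80-fold. WRI4, a regulator of wax synthesis, was the exception, with 16.2 RPKM in swi3b +/-, against 27.9 in Col-0 (1.71-fold lower). Its locus of 8549 bp also holds NUDT3.

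The 3 members that encode immune receptors of the TIR-NBS-LRR class were higher in the tables that list them, 2 in swi3b +/- and 2 in idn2-1. They were grouped after their values were seen, and 11 of 16 long loci were higher in swi3b +/- and 9 of 59 in idn2-1. Genes of this class outside the long loci were not analysed here. AT4G19520 had 5.11 RPKM in swi3b +/-, against 3.03 in Col-0, and WRR4, which confers resistance to white rust, 16.9 in idn2-1, against 7.82 in Col-0. AT5G58120 had 3.91 RPKM in swi3b +/-, against 1.83 in Col-0, and 3.35 in idn2-1, against 1.56 in Col-0 (2.14-fold and 2.15-fold). None of these 3 genes is listed in nrpe1.

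In idn2-1, all 6 members listed there that act in DNA demethylation, replication or repair were lower. DML2 removes methylated cytosine and belongs to the ROS1 family, and ROS3 is an RNA-binding protein of the same demethylation pathway. DML2 had 3.76 RPKM in idn2-1, against 7.15 in Col-0, and ROS3 had 5.37 in idn2-1, against 10.2 in Col-0 (1.90-fold and 1.89-fold lower, q = 0.0394 and 0.0474 in the authors' deposited table). Both falls lie near the smallest listed in that table, whereas ROS1 itself, outside the set, had 0.862 RPKM in idn2-1 and 8.58 in Col-0. ICU2, the catalytic subunit of DNA polymerase alpha, UVH3, an endonuclease of excision repair, and SMC6A, of a chromosome maintenance complex, fell 2.05-fold, 2.11-fold and 1.97-fold. HEI10, which acts in meiotic crossing over, had 0.776 RPKM in idn2-1, against 1.74 in Col-0. It overlaps MRD1 head to head by 1446 bases, and MRD1, at 2.56 RPKM in idn2-1 and 32.2 in Col-0, fell far more in the same locus. None of these 6 members is listed in nrpe1 or swi3b +/-. The photolyase gene PHR1, which also acts in DNA repair, was not in the group and is listed in nrpe1 alone, where it was higher. They were grouped after their values were seen, and 84.7% of all long loci in idn2-1 were lower.

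The members of chromatin and transcription (5) and of RNA export and binding (3), grouped after their values were seen, were all lower in idn2-1. With 84.7% of all long loci lower there, and 43 of the 50 lower ones by less than 2.5-fold, nothing is read from this count. SNL2, a scaffold of histone deacetylase complexes, had 4.22 RPKM in idn2-1, against 8.40 in Col-0. RLT2, a partner of ISWI remodellers, had 3.12 RPKM in idn2-1, against 6.58 in Col-0, and ELF8, of the Paf1 elongation complex, 3.77 in idn2-1, against 7.94 in Col-0. These falls were 1.99-fold, 2.11-fold and 2.11-fold, close to the median of the lower members. THO2, of the complex that couples transcription to RNA export, has 32 exons over 13769 bp and fell 1.89-fold. PUM4 and ML1, genes for RNA-binding proteins, fell 2.01-fold and 2.09-fold, and MOS1, which affects immune receptor expression, 1.90-fold.

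Of the members listed in idn2-1, 6 that act in the cytoskeleton or membrane traffic, grouped after their values were seen, were lower, beside 84.7% of all long loci. AT2G32240, annotated as an early endosome antigen, was not in that group and was lower as well (2.08-fold). AT5G43310, annotated as a COP1-interacting protein-like protein, fell 1.91-fold. The search for words in product names put it in the cytoskeleton class only through the letters actin within interacting, so it is not counted here. XIH, a myosin motor gene with 39 exons, had 2.13 RPKM in idn2-1, against 5.63 in Col-0 (2.64-fold lower, q = 0.0002 in the authors' deposited table). NET1D, for an actin-binding protein, fell 1.89-fold, AT5G08390, a WD40 repeat gene, 2.08-fold and FAB1D, for a lipid kinase of endosomes, 2.22-fold. AT2G43160, of the ENTH/VHS family, was abundant, with 52.2 RPKM in idn2-1, against 114 in Col-0. The most abundant member, AT5G40450, annotated as an A-kinase anchor-like protein with a transcript of 9194 bases, had 92.0 RPKM in idn2-1, against 287 in Col-0. Its 3.12-fold fall (q = 0.00764 in the authors' deposited table) exceeded that of XIH. KEG, a ubiquitin ligase of abscisic acid signalling, NEK2 and AT1G48490, the last 2 encoding protein kinases, fell 2.14-fold, 1.94-fold and 2.04-fold.

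Among the long loci, a pair of pseudogenes had the largest falls in idn2-1, followed by BCAT-2. AT5G27895 had 0.126 RPKM in idn2-1, against 0.770 in Col-0 (6.13-fold), and AT2G14220 had 0.270 in idn2-1, against 1.56 in Col-0 (5.77-fold). Both are low, and the order rests on that. With 1 RPKM added to both values, the log2 ratio in idn2-1 is -0.65 for AT5G27895 and -1.01 for AT2G14220, against -2.01 for BCAT-2. SADHU2-1 (AT1G35112), a non-coding retrotransposon of 891 bp, has the longest deposited locus, 22846 bp, which holds 5 further pseudogenes. It had 3.26 RPKM in idn2-1, against 10.2 in Col-0 (3.13-fold lower, q = 0.000394 in the authors' deposited table). AT2G11240 fell 2.48-fold and the antisense transcript AT1G44125 2.15-fold. With AT5G35935 the only one higher, 5 of these 6 non-coding members were lower in idn2-1, beside 84.7% of all long loci.

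In 3 loci, idn2-1 had 1 gene higher and its neighbour lower. AT1G05220, a transmembrane protein gene of 948 bp, had 6.47 RPKM in idn2-1, against 2.09 in Col-0. Its neighbour HDG2, a homeodomain gene of the epidermis, had 2.08 RPKM in idn2-1, against 4.23 in Col-0. They are transcribed towards each other across a gap of 53 bases, shown here as the whole stretch between the annotated gene ends.
Gap between AT1G05220 and HDG2 (plus strand, TAIR10.1, chr1:1512843-1512895): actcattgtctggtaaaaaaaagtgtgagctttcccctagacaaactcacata
TBL8, with 19.4 RPKM in idn2-1 and 3.11 in Col-0, lies tail to tail with AT3G11560, a LETM1-like gene with 13.4 in idn2-1 and 33.7 in Col-0. Their annotated genes overlap by 1040 bases. AT5G58120, higher in idn2-1, and ROS3, lower there, are also tail to tail and overlap by 19 bases. In swi3b +/- the 1 locus with a pair of members, AT3G15350 and SPA3, a repressor of light signalling, had both higher (1.85-fold and 2.29-fold), with an overlap of 135 bases. The shorter gene of the pair rose in the first 2 of the idn2-1 loci, while in the third AT5G58120, at 3812 bp, is the longer one. Their number does not allow a test.

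**Figure D5:**
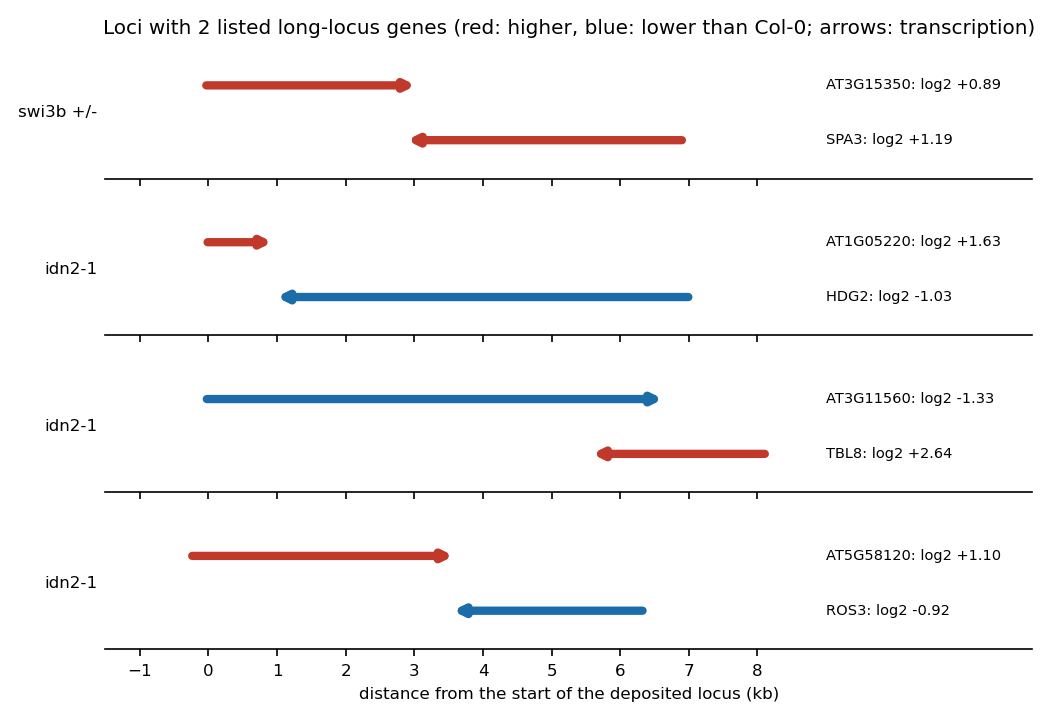
Arrows show the annotated genes of the 4 loci with a pair of members, along the distance in kb from the start of the deposited locus, pointing in the direction of transcription, with the log2 ratio of mutant to Col-0 beside each name. Red genes were higher and blue genes lower than in Col-0. All 4 pairs point towards each other, and the 3 pairs in idn2-1 each hold 1 red and 1 blue gene.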

How the data were processed

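Per the file headers, each of 3 deposited tables gives an identifier, a locus, RPKM values for a mutant and for Col-0, a log2 fold change and, for each feature, p-values and q-values. The authors' RPKM values are 1 per genotype. TopHat, Cufflinks and the build TAIR10 appear in the submitters' processing notes, with no version. The test behind the authors' p-values and q-values is unknown here. All listed features have q below 0.05. Ratios were recomputed from RPKM and differ from the listed log2 values by at most 1.24e-05. Starts are written 1-based. The number of features tested was recovered from each p and its rank, taking q as Benjamini-Hochberg values (27012 in nrpe1, 25877 in swi3b +/-, 27755 in idn2-1), a step tested on simulated data. No column was left unmapped (0 columns).

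Names, spans, exons and orientation were taken from RefSeq's TAIR10.1 annotation (37899 nuclear loci). All 1838 matched gene rows overlapped their annotated gene, and all loci lie within its chromosome lengths. Python 3.11.15 with pandas 2.3.3 was used.

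The members, the lists and the alternatives were chosen with earlier results of these data known. Named genes were, per table, the 6 largest rises and 6 largest falls with a value of at least 1 RPKM, members of all 3 tables, with opposite directions, with a value of 0, the 5 longest loci, those nearest to 6000 bp and up to 4 per role by words in the product name. AT2G25650 (among the longest loci) and AT1G02890 (by role) also met these rules and fell 2.09-fold and 2.32-fold in idn2-1. DML2, ICU2, UVH3, SMC6A, HEI10, SNL2, RLT2, ELF8, MOS1, PUM4, ML1, FAB1D, HDG2, P5CS1, RXW8, SEC, AT3G15350, AT4G33150, AT5G08390, AT2G32240, AT2G43160 and AT2G11240 were named after their values were seen, as were the groups they are described in.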

Additional observations from a re-analysis of the deposited data

How the results depend on the processing

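The shares of higher members and the median log2 ratios were recomputed 56 times in all. Of these, 47 values stayed within the 95% interval of the reported one (binomial for shares, order statistics for medians, taking genes as independent). Most alternatives reuse the same members, and the intervals are wide, for the share in nrpe1 from 28.9% to 82.3%. Nothing is therefore read from that count. The median in nrpe1 changed sign at a locus limit of 8000 bp (-0.56) and at 2-fold or more (-0.040), and in swi3b +/- at 8000 bp (-0.81). At 8000 bp 33.3% of the swi3b +/- members were higher, and at 2-fold their median was 1.13. In idn2-1 the median was -1.21 at q below 0.01 and -0.83 with 1 RPKM added to both values. Added after seeing the data were the rescaled Col-0 values given beside the genes, the added 1 RPKM for single genes, and a split by exons. That split gave 38.1% higher in idn2-1 for members with up to 9 exons and 2.63% with more. In idn2-1 more members were lower than higher in every setting, with 2.63% to 38.1% higher and medians from -1.21 to -0.83. Of all 754 genes listed in idn2-1, 42.4% were higher, so the share for members with up to 9 exons lies near that of all genes. With 1 RPKM added, all 24 ratios of members of more than 1 table kept their direction, while those of low members such as AT5G35935 shrank. No replicate could be left out and no paired analysis was possible because the tables hold 1 pooled value per genotype. The depth behind each value is unknown.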
